A study of Mus musculus with 6 samples.

Results

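Cathepsins are the proteases that digest protein inside lysosomes, and the 10 genes described here are the lysosomal cathepsins Ctsb, Ctsc, Ctsd, Ctse, Ctsf, Ctsh, Ctsk, Ctsl, Ctss and Ctsz. They were chosen by gene symbol, with the lysosomal carboxypeptidase gene Ctsa left out, and all 10 were found among the 55487 genes of the table. All 10 also passed the filter on low counts and were among the 13140 genes tested. TpMo-derived macrophages were compared with Ly6Chi-derived macrophages, with 3 libraries in each group. In both groups mouse bone marrow cells, TpMos or mature Ly6Chi monocytes, were sorted, kept for 7 days in medium with CSF-1 (the growth factor that keeps macrophages alive) and scraped off for RNA sequencing. Mouse strain, genotype, sex and age, and the CSF-1 concentration of each sample, are not given in the sources used here. At issue in the comparison is how macrophages grown from these bone marrow cells differ.

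Most cathepsins are cysteine proteases of the papain family, whereas cathepsins D and E are aspartic proteases. They are made as inactive precursors, tagged with mannose 6-phosphate, carried to lysosomes by its receptors and activated there by removal of the propeptide, while cystatins inhibit the cysteine cathepsins that leak out. Macrophages use them to break down engulfed material, to process antigens and the invariant chain of MHC class II, and to digest matrix proteins.

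The TpMo-derived libraries held less cathepsin transcript in sum than the Ly6Chi-derived libraries, and the enzymes did not move alike. For the sum an exact two-sided permutation test gave p = 0.1, the smallest that 3 against 3 libraries can give. The size of the change, -19.3% or -11.2%, depended on the measure used. Of the 10 genes, 5 fell (Ctsd, Ctsh, Ctsl, Ctss and Ctsz) and 1 rose (Ctsc) in TpMo-derived relative to Ly6Chi-derived macrophages, by edgeR's quasi-likelihood test with Benjamini-Hochberg adjustment over all genes tested and a limit of 0.05. Among all 13140 genes the same rule called 12.3% in either direction, 6.54% as higher and 5.79% as lower. That is 859 higher and 761 lower genes, a balance that turned to 737 higher and 902 lower with library sizes alone, where the cathepsins kept 1 higher and 5 lower. The other 4, Ctsb, Ctse, Ctsf and Ctsk, were not called. Each of the 5 decreases was smaller than 1.5-fold, and the increase of Ctsc was 1.97-fold. The median log2 fold change, TpMo-derived over Ly6Chi-derived, was -0.23 over the 10 cathepsins and 0.0054 over all genes tested.

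Cathepsin genes are among the most abundant transcripts of these cells, and abundant genes were called more often. Of 103 genes that averaged 1000 CPM or more (counts relative to the library's TMM-scaled total), 63.1% were called, 42.7% as higher and 20.4% as lower. Of the 5 cathepsins above that level, the 4 genes Ctsd, Ctsl, Ctss and Ctsz fell and Ctsb was not called. The groups did not overlap for 7 of the 10 cathepsins. The same held for 30.5% of all genes tested and for 75.7% of the genes of at least 1000 CPM. The plot of all genes tested shows where the cathepsins lie in level and change.

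**Figure D1:**
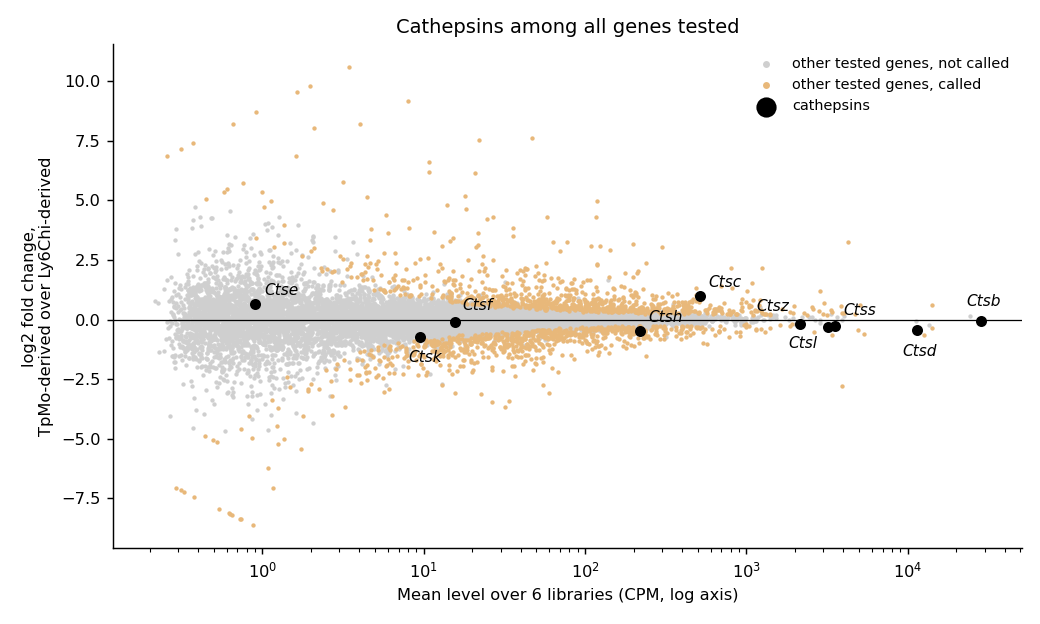
Log2 fold change (TpMo-derived over Ly6Chi-derived, vertical axis) against mean level over 6 libraries (CPM, log axis) for the 13140 genes tested. Orange points were called at an adjusted p under 0.05, and the 10 cathepsins are black. Ctsc lies above 0 at 0.98, and the 5 cathepsins of at least 1000 CPM lie between -0.45 and -0.05.

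The libraries held 33042094, 27154105 and 23765773 counts on genes in TpMo-derived macrophages, and 26804286, 27051518 and 31820999 in Ly6Chi-derived macrophages. A floor of 3 counts thus stands at 0.0921 to 0.13 CPM, which covers counting error only. Nothing in the labels says that libraries of a group came from separate cultures or animals, so the p-values measure the spread between these libraries, which may be technical. All 8 macrophage markers examined were detected and passed the filter, with a summed level of 35268 to 37794 CPM in TpMo-derived and 28910.3 to 31964 CPM in Ly6Chi-derived libraries. Of them Adgre1, Csf1r, Fcgr1 and Cd14 rose and Itgam fell, and over all genes tested 12.3% were called. Mast cell markers were at 0 in every library. Summed neutrophil markers reached at most 2.75 CPM in TpMo-derived and 1.49 CPM in Ly6Chi-derived libraries. Summed dendritic cell markers gave 2.46 to 8.02 CPM in TpMo-derived and 2.60 to 4.58 CPM in Ly6Chi-derived libraries, with Flt3 and Clec9a among 5 of 8 at 0, and neither of the 2 tested, Zbtb46 and Clec10a, was called. Summed B cell markers gave 7.28 to 14.1 CPM in TpMo-derived and 1.71 to 7.87 CPM in Ly6Chi-derived libraries. Among these markers Cd79a and Pax5 were at 0 everywhere, and the tested ones, Cd79b and Ighm, were not called. Summed fibroblast and endothelial markers gave 0.694 to 1.66 CPM in TpMo-derived and 0 to 0.373 CPM in Ly6Chi-derived libraries. The endothelial marker Pecam1 rose (75 counts in the TpMo-derived and 2 counts in the Ly6Chi-derived group, edgeR adjusted p = 0.0356), while 5 of those 7 markers, among them Col1a1 and Dcn, were at 0. Of the T and NK cell markers 6 of 7 were at 0 everywhere, and the other, Cd4, rose (edgeR adjusted p = 0.00641), with 2.82 to 9.58 CPM in TpMo-derived and 0 to 0.311 CPM in Ly6Chi-derived libraries. Pecam1 and Cd4 passed the filter only through the TpMo-derived group, where they were higher. The part of other cells in the cathepsin results was not tested. In bulk RNA, fewer cells of a type and less RNA per cell cannot be told apart.

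The mean levels of the 10 genes spanned 4 orders of magnitude when expressed per exon length as TPM (counts per exon length, scaled to the same total in every library). Ctsb, an endopeptidase that also removes dipeptides from carboxyl ends, and Ctsd, the main lysosomal aspartic protease, were the most abundant. Ctsb averaged 15332 ± 823 TPM in TpMo-derived and 16637 ± 336 TPM in Ly6Chi-derived macrophages (SD, n = 3 each, as for all means here). Ctsd averaged 13621 ± 426 TPM in TpMo-derived and 19446 ± 254 TPM in Ly6Chi-derived macrophages. Ctsb thus stood above Ctsd in each TpMo-derived library, whereas Ctsd stood above Ctsb in each Ly6Chi-derived library. Among all 55487 genes ranked by TPM, Ctsd took places 3 to 7 and Ctsb places 4 to 5 across the 6 libraries.

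Ctss and Ctsz followed in both groups. Ctss, an endopeptidase that stays active near neutral pH and cleaves the invariant chain in antigen-presenting cells, averaged 7806 ± 285 TPM in TpMo-derived and 9856 ± 420 TPM in Ly6Chi-derived macrophages. Ctsz, a carboxypeptidase, averaged 4615 ± 83.3 TPM in TpMo-derived and 5499 ± 8.10 TPM in Ly6Chi-derived macrophages. The endopeptidase gene Ctsl came next, at 1461 ± 72.5 TPM in TpMo-derived and 1876 ± 154 TPM in Ly6Chi-derived macrophages. These 3 genes were among the 77 most abundant of the table in every library.

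The remaining 5 genes were lower still. Ctsc, the dipeptidyl peptidase that activates granule serine proteases, averaged 388 ± 69.4 TPM in TpMo-derived and 206 ± 8.78 TPM in Ly6Chi-derived macrophages. Ctsh, an aminopeptidase, averaged 134 ± 14.4 TPM in TpMo-derived and 195 ± 13.1 TPM in Ly6Chi-derived macrophages. The ranges of Ctsc and Ctsh were apart in TpMo-derived macrophages and overlapped in Ly6Chi-derived macrophages. Ctsk, Ctsf and Ctse averaged 15.6, 9.78 and 1.16 TPM in TpMo-derived macrophages, and 27.1, 11.1 and 0.762 TPM in Ly6Chi-derived macrophages. All other neighbours in the order of levels had ranges apart within each group.

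**Figure D2:**
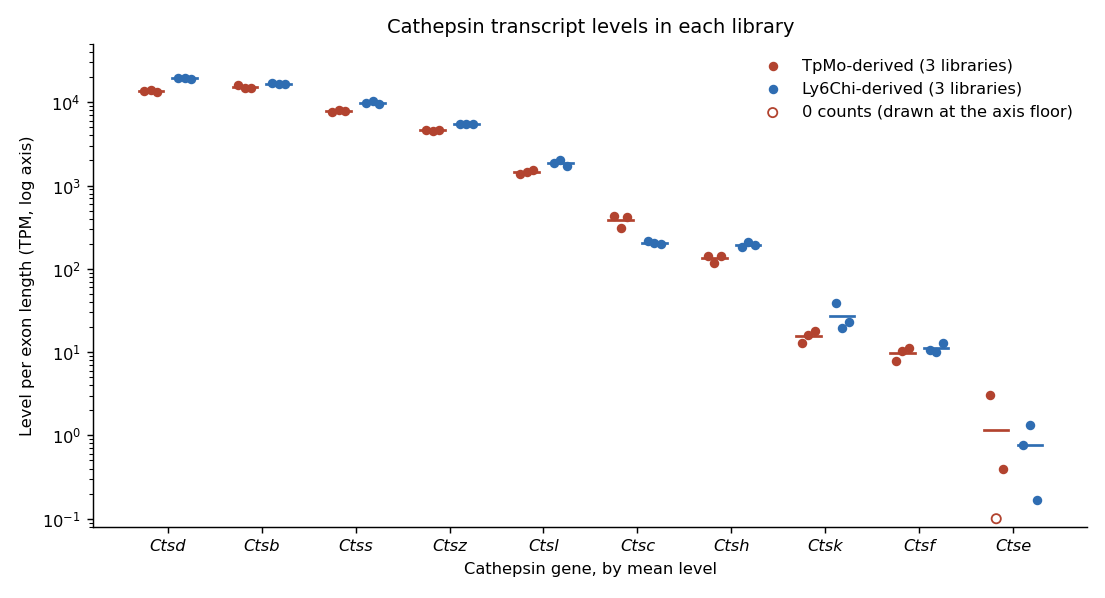
Level of each cathepsin in each library (TPM by the exon length of the table, log axis), with TpMo-derived libraries in red, Ly6Chi-derived libraries in blue and the group mean as a bar. Ctsd and Ctsb lie between 13149 and 19652 TPM in all 6 libraries, Ctsc is the only called gene with the TpMo-derived libraries on the higher side, and Ctse has 0 counts in 1 TpMo-derived library.

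The order of neighbours depends in places on the length used. Exons of Ctsd share 808 of 2351 bases (34.4%) with Gm49369, a gene on the same strand that holds 0 counts in every library, and reads on bases of several genes were not counted. With only unshared exon bases as length, Ctsd stood first in both groups, at 19776 TPM in TpMo-derived and 28021 TPM in Ly6Chi-derived macrophages, against 16752 and 18042 TPM of Ctsb. With the length of the principal transcript instead, Ctsd at 15150 TPM and Ctsb at 14961 TPM had overlapping ranges in Ly6Chi-derived macrophages. Ctsh at 383 TPM then stood above Ctsc at 339 TPM in Ly6Chi-derived macrophages. Ctsf and Ctsk also changed places, with Ctsf at 17.6 TPM in TpMo-derived and 20.0 TPM in Ly6Chi-derived macrophages and Ctsk at 11.01 TPM in TpMo-derived and 19.1 TPM in Ly6Chi-derived macrophages. Both of these lengths were added as alternatives after seeing the data. Reads are also lost on 774 exon bases (12.8%) of Ctsb, shared with Fdft1 on the other strand, and on 1742 bases (26.8%) of Ctsl, shared with the antisense gene Gm47123. The library protocol does not mark strand, so sense and antisense reads cannot be separated at these genes.

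The summed level of the 10 genes was lower in TpMo-derived macrophages. It came to 44175, 43392 and 42585 TPM in the TpMo-derived libraries, and to 54142, 54195 and 52928 TPM in the Ly6Chi-derived libraries, so the groups did not overlap. The means were 43384 ± 795 TPM in TpMo-derived and 53755 ± 716 TPM in Ly6Chi-derived macrophages, a log2 ratio of -0.31 or a change of -19.3% (exact two-sided permutation test, p = 0.1, the smallest that 3 against 3 libraries can give). CPM give long transcripts more weight and are scaled by TMM, which TPM are not. Counted so, the sum was 46678 ± 1206 CPM in TpMo-derived and 52572 ± 661 CPM in Ly6Chi-derived macrophages. The change was -11.2%, with the same p of 0.1 (exact test). The parts of length and of scaling in this smaller change were not tested. Without Ctsd, the gene with the highest mean TPM over the 6 libraries, the change in summed TPM was -13.3%.

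The make-up of the sum shifted along with it. Ctsb made up 35.3% ± 1.35 of the summed TPM in TpMo-derived and 31.0% ± 0.667 in Ly6Chi-derived macrophages. Ctsd made up 31.4% ± 0.712 in TpMo-derived and 36.2% ± 0.138 in Ly6Chi-derived macrophages. For both genes the groups did not overlap in share, nor did they for Ctsc, Ctsh and Ctsz. Ctsz made up 10.43% to 11.01% in TpMo-derived libraries and 10.14% to 10.40% in Ly6Chi-derived libraries, a higher share although its level fell. These shares use the exon length of the table. With only unshared exon bases as length, Ctsd stood above Ctsb in both groups. Ctss made up between 17.1% and 18.7% in TpMo-derived libraries, and between 17.8% and 19.1% in Ly6Chi-derived libraries, so the groups overlapped for its share as for that of Ctsl. Ctsc made up 0.895% ± 0.159 in TpMo-derived and 0.384% ± 0.0133 in Ly6Chi-derived macrophages.

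Among the exopeptidases, Ctsc rose. It lies on chromosome 7 from 88278085 to 88310888 on the plus strand of GRCm38 (ENSMUSG00000030560.17), and its promoter in RefSeq on GRCm38.p6, chr7:88277835-88278134, is shown because Ctsc moved against the other cathepsins that were called. Capitals mark a match to the PU.1-like motif GAGGAAGT on the other strand, whose first base as printed is at position -151 from the start site, where -1 is the base just before it. PU.1 is a transcription factor of myeloid cells.
Ctsc promoter: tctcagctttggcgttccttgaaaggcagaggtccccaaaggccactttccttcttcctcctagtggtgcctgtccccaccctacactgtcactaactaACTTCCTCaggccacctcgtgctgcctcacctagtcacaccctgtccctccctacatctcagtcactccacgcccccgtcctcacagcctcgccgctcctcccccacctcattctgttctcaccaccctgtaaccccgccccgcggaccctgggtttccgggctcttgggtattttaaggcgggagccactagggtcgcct

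Ctsc stood at 757, 536 and 754 CPM in the TpMo-derived libraries, and at 352, 345 and 339 CPM in the Ly6Chi-derived libraries. The lowest TpMo-derived library, replicate 2, still lay above the highest Ly6Chi-derived library. The spread was wider among TpMo-derived libraries, with a coefficient of variation of 18.6% against 1.89% among Ly6Chi-derived libraries. The log2 fold change was 0.98 ± 0.12 (SE), with a 95% interval of 0.72 to 1.24 (edgeR, adjusted p = 4.92e-04). Ctsc was the only cathepsin called in a test against a 1.5-fold change (adjusted p = 0.0341), which called 2.41% of all genes. With each library left out in turn its log2 fold change stayed between 0.90 and 1.13, and it was called each time.

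Granule serine proteases, the known substrates that Ctsc activates in neutrophils, mast cells and cytotoxic lymphocytes, were all but undetected. Of 8 genes listed for this group, which also holds the granule markers Mpo and Nkg7, 7 had 0 counts in all 6 libraries (Prtn3, Ctsg, Gzma, Gzmb, Mpo, Cma1 and Nkg7) and 0 passed the filter. Elane, the neutrophil elastase gene, had 0 counts in the TpMo-derived group and 8 counts in the Ly6Chi-derived group, all of them in replicate 3.

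Ctsb, Ctsz and Ctsh, the other exopeptidases, gave lower means in TpMo-derived macrophages, and Ctsz and Ctsh were called. Ctsb (chromosome 14, 63122462 to 63145923, plus strand, ENSMUSG00000021939.8) stood at 29519.8, 26911 and 27668 CPM in the TpMo-derived libraries, and at 28925, 28896 and 29389 CPM in the Ly6Chi-derived libraries. The highest value of all belonged to TpMo-derived replicate 1, so the groups overlapped. Its log2 fold change was -0.05 ± 0.04 (SE, edgeR adjusted p = 0.510), and the 95% interval of the change ran from -9.47% to 2.72%. That interval does not reach the change seen in Ctsd.

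Ctsz (chromosome 2, 174427493 to 174439039, minus strand, ENSMUSG00000016256.10) stood at 2000.4, 1949 and 2082 CPM in the TpMo-derived libraries, and at 2223, 2314 and 2329.6 CPM in the Ly6Chi-derived libraries. The groups did not overlap, and the change of -12.2% was the smallest among the cathepsins called. Its log2 fold change was -0.19 ± 0.05 (SE, edgeR adjusted p = 0.0305). The call of Ctsz was lost in 4 of 6 fits with a library left out, with adjusted p of 0.0774 without TpMo-derived replicate 1, 0.0707 without TpMo-derived replicate 2, 0.0977 without Ly6Chi-derived replicate 2 and 0.107 without Ly6Chi-derived replicate 3.

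Ctsh (chromosome 9, 90054152 to 90076089, plus strand, ENSMUSG00000032359.14) stood at 191, 158 and 198 CPM in the TpMo-derived libraries, and at 232, 275 and 254 CPM in the Ly6Chi-derived libraries. All TpMo-derived libraries lay below all Ly6Chi-derived libraries. Ctsh had a log2 fold change of -0.48 ± 0.10 (SE, edgeR adjusted p = 0.0121), or -28.3%, with a 95% interval of -0.70 to -0.25. Without Ly6Chi-derived replicate 2, the highest library, the adjusted p was 0.0596.

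Among the cysteine endopeptidases, Ctss and Ctsl fell and Ctsk and Ctsf were not called. Ctss (chromosome 3, 95526786 to 95556403, plus strand, ENSMUSG00000038642.10) stood at 3065, 3289 and 3258 CPM in the TpMo-derived libraries, and at 3683, 4098 and 3819 CPM in the Ly6Chi-derived libraries. The groups did not overlap. Ctss had a log2 fold change of -0.27 ± 0.05 (SE, edgeR adjusted p = 0.00856), or -17.1%, and it stayed between -0.31 and -0.24 and was called with each library left out.

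The promoter of Ctss in RefSeq, chr3:95526536-95526835 on GRCm38.p6, is shown because it held matches to motifs of interferon-responsive and myeloid genes. Capitals mark an ISRE-like motif (GAAA, any 2 bases, GAAA, the core of the interferon-stimulated response element), here GAAACCGAAA at position -21, and the PU.1-like motif on the other strand at position -2.
Ctss promoter: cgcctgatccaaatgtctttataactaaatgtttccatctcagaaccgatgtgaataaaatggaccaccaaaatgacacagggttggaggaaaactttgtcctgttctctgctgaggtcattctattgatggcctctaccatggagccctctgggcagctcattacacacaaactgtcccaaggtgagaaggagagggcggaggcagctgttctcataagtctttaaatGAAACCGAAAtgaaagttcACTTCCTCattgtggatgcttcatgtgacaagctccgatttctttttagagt

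Ctsl (chromosome 13, 64359337 to 64370890, minus strand, ENSMUSG00000021477.9) stood at 2698, 2839 and 3065 CPM in the TpMo-derived libraries, and at 3441, 3834 and 3271 CPM in the Ly6Chi-derived libraries. The groups did not overlap, with Ly6Chi-derived replicate 3 closest to the TpMo-derived libraries. The log2 fold change was -0.29 ± 0.07 (SE, edgeR adjusted p = 0.0194), or -18.4%. The call did not hold in the fit without TpMo-derived replicate 1 (adjusted p = 0.0721) or in that without Ly6Chi-derived replicate 2 (adjusted p = 0.0661).

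Ctsk (chromosome 3, 95499256 to 95509362, plus strand, ENSMUSG00000028111.4), the collagen-degrading cathepsin of osteoclasts, stood at 5.86, 7.24 and 8.29 CPM in the TpMo-derived libraries, and at 16.4, 8.60 and 10.3 CPM in the Ly6Chi-derived libraries. The groups did not overlap, and Ly6Chi-derived replicate 1 lay well above the others. The log2 fold change was -0.72 ± 0.30 (SE), with a 95% interval of -1.39 to -0.05, and did not pass the adjustment over all genes (edgeR adjusted p = 0.168). Without Ly6Chi-derived replicate 1 it was -0.41. Of 9 osteoclast markers examined, 6 were tested. Of those Mmp9 rose, Nfatc1, Atp6v0d2 and Itgb3 fell, and Acp5 and Dcstamp were not called. Over all genes tested 12.3% were called. Calcr was at 0 in every library. Atp6v0d2 averaged 122 CPM in TpMo-derived and 354 CPM in Ly6Chi-derived macrophages. Mmp9, which passed the filter only through the TpMo-derived group, averaged 43.7 CPM in TpMo-derived and 0.244 CPM in Ly6Chi-derived macrophages. The summed level of the list, to which Atp6v0d2 gave the most, was 226 to 257 CPM in TpMo-derived and 403 to 512 CPM in Ly6Chi-derived libraries. The part of this difference in the value of Ctsk was not tested.

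Ctsf (chromosome 19, 4855130 to 4860918, plus strand, ENSMUSG00000083282.3), an endopeptidase that can cleave the invariant chain in mouse macrophages, stood at 11.7, 15.6 and 17.5 CPM in the TpMo-derived libraries, and at 15.1, 14.6 and 19.0 CPM in the Ly6Chi-derived libraries. The groups overlapped. Ctsf had a log2 fold change of -0.12 ± 0.22 (SE, edgeR adjusted p = 0.812), and its 95% interval of -0.62 to 0.38 includes changes as large as those of the cathepsins that fell.

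The aspartic protease gene Ctsd (chromosome 7, 142375911 to 142388038, minus strand, ENSMUSG00000007891.16) had the smallest p of the 10 genes. It stood at 9679, 9823 and 9527 CPM in the TpMo-derived libraries, and at 12982, 13397 and 13229 CPM in the Ly6Chi-derived libraries. The gap between the groups was wide relative to the spread within them, with coefficients of variation of 1.53% in TpMo-derived and 1.58% in Ly6Chi-derived macrophages. The log2 fold change was -0.45 ± 0.04 (SE, edgeR adjusted p = 5.23e-05), with a 95% interval of -0.53 to -0.37, and a change of -26.7%. It stayed between -0.47 and -0.44 and was called with each library left out.

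The promoter of Ctsd in RefSeq, chr7:142387778-142388077 on the minus strand of GRCm38.p6, is shown because it held the E-box CACGTG at 2 places. Capitals mark them, the first at position -245 and the second inside TCACGTGA, which begins at position -99. TCACGTGA is the core of the element that TFEB and its relatives bind in promoters of lysosomal genes.
Ctsd promoter: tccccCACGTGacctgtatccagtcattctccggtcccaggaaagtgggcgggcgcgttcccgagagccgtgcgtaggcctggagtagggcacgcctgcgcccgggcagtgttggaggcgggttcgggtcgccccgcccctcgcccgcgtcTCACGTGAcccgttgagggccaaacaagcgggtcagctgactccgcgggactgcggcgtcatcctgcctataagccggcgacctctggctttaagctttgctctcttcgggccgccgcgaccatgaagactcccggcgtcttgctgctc

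Ctse (chromosome 1, 131638306 to 131675505, plus strand, ENSMUSG00000004552.16), an aspartic protease of endosomes, was near the limit of detection. It had 95, 0 and 9 counts in the TpMo-derived libraries, and 19, 34 and 5 counts in the Ly6Chi-derived libraries. A single TpMo-derived library held most of the counts, and the groups overlapped. Its log2 fold change of 0.67 ± 1.40 (SE, edgeR adjusted p = 0.840) turned to -1.83 without TpMo-derived replicate 1, so no direction was detectable in these libraries.

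**Figure D3:**
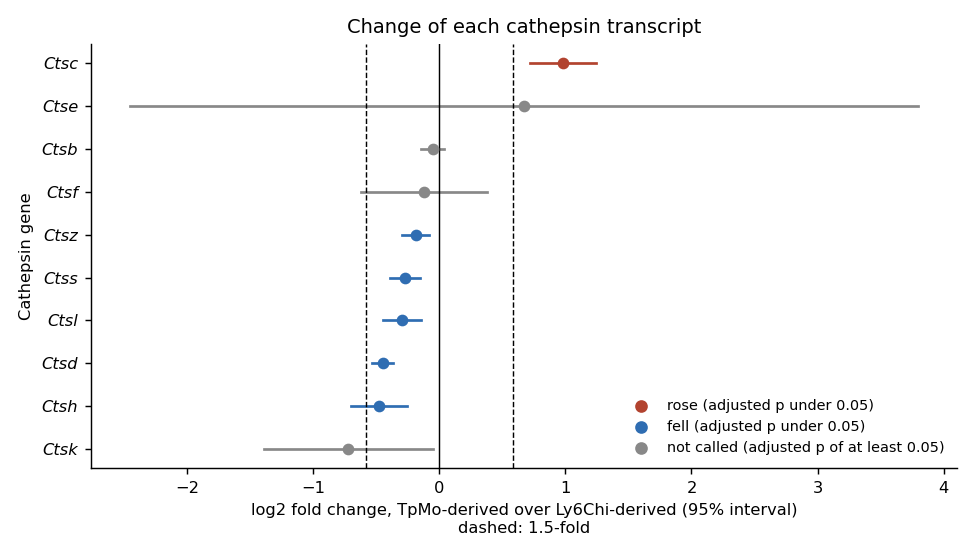
Log2 fold change of each cathepsin, TpMo-derived over Ly6Chi-derived, with its 95% interval. Dashed lines mark 1.5-fold. Ctsc lies to the right with its interval of 0.72 to 1.24, and the 5 genes that fell lie between -0.48 and -0.19. The grey intervals of Ctsb, Ctse and Ctsf span 0.

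The calls differed in how far they rested on single libraries, which the plot of adjusted p with libraries left out shows. Ctsc, Ctsd and Ctss were called in all 6 such fits, Ctsh in 5, Ctsl in 4 and Ctsz in 2.

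**Figure D4:**
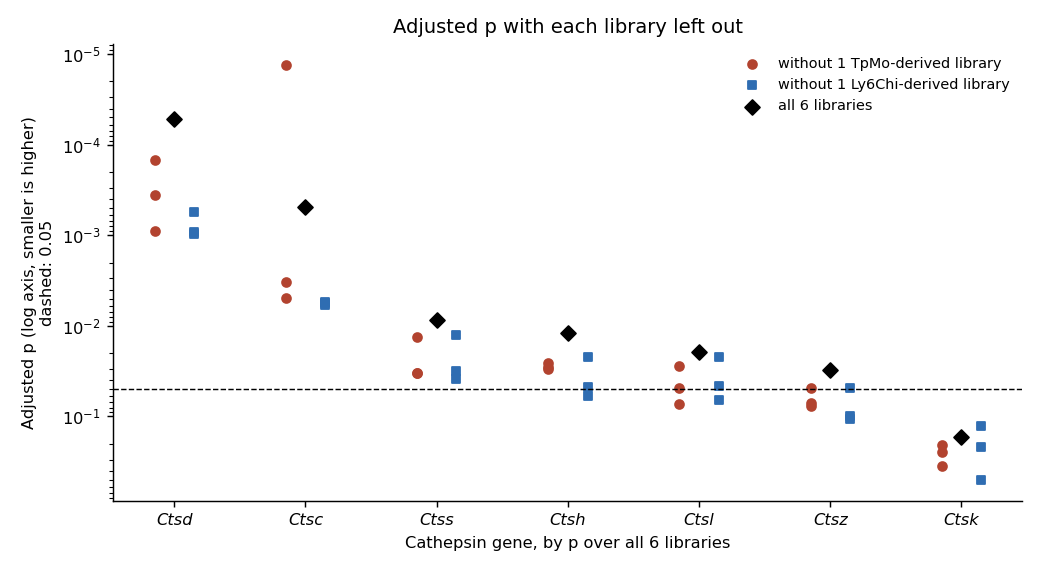
Adjusted p (log axis, smaller values higher) of the 7 cathepsins with the smallest p, over all 6 libraries (diamonds) and with 1 TpMo-derived (red circles) or 1 Ly6Chi-derived library (blue squares) left out. Every point of Ctsd, Ctsc and Ctss lies above the dashed line at 0.05, while points of Ctsh, Ctsl and Ctsz cross it.

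Promoters were found in the RefSeq table for 7 of the 10 genes, Ctsc, Ctsd, Ctsf, Ctsk, Ctsl, Ctss and Ctsz. Each covers 250 bases before the start site and 50 bases from it, and both strands were searched. These start sites need not be the outer ends of the annotated genes. The Ctsl window, 64370471 to 64370770, lies inside the annotated span of Ctsl, and most of the Ctsd window lies inside that of Ctsd. Bases just after the Ctsk start were in no annotated Ctsk transcript. The E-box CACGTG occurred in 3 of the 7, Ctsd, Ctsf and Ctsl, and in 7.15% of all 32851 promoters of the same length. TCACGTGA, which contains the E-box, occurred in Ctsd alone among the 7, and in 0.974% of all promoters. The ISRE-like motif occurred in Ctss, and in 3.44% of all promoters. GAGGAAGT occurred in Ctsc, which rose, and in Ctss, which fell, and in 3.2% of all promoters. Of the E-box genes, Ctsd and Ctsl fell and Ctsf was not called.

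Ctsk and Ctss are neighbours on chromosome 3, 17424 bases apart on the same strand. Their log2 fold changes were -0.72 and -0.27. Arnt, on the other side of Ctsk, stood at 51.5 CPM in TpMo-derived and 62.1 CPM in Ly6Chi-derived macrophages and was not called (log2 fold change -0.27, edgeR adjusted p = 0.224). Of the other tested genes within 50 kb of a cathepsin, only Zdhhc24 and Aaed1 were called. The rest, among them Fdft1, Rab7b, Dpp3, Morf4l1 and Prelid3b, were not, and over all genes tested 12.3% were called. Zdhhc24 near Ctsf rose, with a log2 fold change of 0.56 (edgeR adjusted p = 0.0318). Aaed1 near Ctsl fell, with a log2 fold change of -0.68 (edgeR adjusted p = 0.0218).

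Beyond the 10 genes, a list of 15 other cathepsins and related proteins held 2 that were tested, with a median log2 fold change of -0.08. Ctsa, a serine carboxypeptidase that also protects other lysosomal enzymes, fell and was at 1963 ± 75.2 CPM in TpMo-derived and 2340 ± 93.3 CPM in Ly6Chi-derived macrophages (log2 fold change -0.25 ± 0.05 SE, edgeR adjusted p = 0.0106). Its call was lost in 3 of 6 fits with a library left out. Ctso was at 99.3 CPM in TpMo-derived and 92.6 CPM in Ly6Chi-derived macrophages and was not called (edgeR adjusted p = 0.703). Of the rest 11 were at 0 in every library, among them Ctsg and the placental cathepsin Ctsj. Ctsw had 0 counts in the TpMo-derived and 18 counts in the Ly6Chi-derived group, all of them in replicate 1.

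Inhibitors of cathepsins showed 1 call. Of 25 listed, 20 were in the table under these symbols, 10 were tested and 1 rose, with a median log2 fold change of 0.07. Over all genes tested 12.3% were called. Cst3, the secreted inhibitor cystatin C, was at 241 CPM in TpMo-derived and 247 CPM in Ly6Chi-derived macrophages (log2 fold change -0.04 ± 0.10 SE). Cstb, the cytosolic inhibitor cystatin B, was at 102.6 CPM in TpMo-derived and 100.0 CPM in Ly6Chi-derived macrophages (log2 fold change 0.04 ± 0.13 SE). Cst7, cystatin F, which reaches lysosomes, was at 1.12 CPM in TpMo-derived and 3.04 CPM in Ly6Chi-derived macrophages (log2 fold change -1.45 ± 0.78 SE, edgeR adjusted p = 0.304). Ctla2b, Serpinb6b, Serpinb6a and Anxa2 had higher means in TpMo-derived macrophages, with log2 fold changes of 2.28, 0.66, 0.20 and 0.11. Serpinb1a and Serpinb9 had lower means, with log2 fold changes of -0.49 and -0.02, and none of these genes was called. Anxa2 was the most abundant, at 1166 CPM in TpMo-derived and 1078 CPM in Ly6Chi-derived macrophages. The gene called was Ctla2a, which encodes a protein like a cathepsin propeptide. It had 82, 38 and 56 counts in the TpMo-derived libraries, and 4, 9 and 9 counts in the Ly6Chi-derived libraries. It thus passed the filter only through the TpMo-derived group, where it was higher. It was at 2.12 CPM in TpMo-derived and 0.251 CPM in Ly6Chi-derived macrophages (log2 fold change 3.05 ± 0.79 SE, edgeR adjusted p = 0.0308), and limma-voom and 4 of the 6 fits with a library left out called no inhibitor.

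The genes that mature and sort lysosomal enzymes moved in both directions. Of 23 listed and tested, 4 rose and 3 fell, with a median log2 fold change of -0.0091. Over all genes tested, 6.54% were called as higher and 5.79% as lower. The test against a 1.5-fold change left 1 higher and 1 lower gene of this list. Lgmn, the asparaginyl protease that cuts several cathepsins into chains, was at 1412 ± 117 CPM in TpMo-derived and 615 ± 44.0 CPM in Ly6Chi-derived macrophages (log2 fold change 1.20 ± 0.08 SE, edgeR adjusted p = 1.30e-05). Ap1b1, a subunit of the adaptor that packs mannose 6-phosphate receptors, rose by 0.63 ± 0.08 on the log2 scale. M6pr, the cation-dependent receptor, rose by 0.35 ± 0.06, and Nagpa, the enzyme that uncovers the mannose 6-phosphate tag, by 0.41 ± 0.07 on that scale. Igf2r, the other receptor, was at 171 CPM in TpMo-derived and 147 CPM in Ly6Chi-derived macrophages and was not called (edgeR adjusted p = 0.105).

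The 3 genes that fell were Sort1, Tpp1 and Scarb2. Sort1, an alternative sorting receptor for cathepsins D and H, was at 14.8 ± 6.29 CPM in TpMo-derived and 56.1 ± 1.55 CPM in Ly6Chi-derived macrophages (log2 fold change -1.93 ± 0.28 SE, edgeR adjusted p = 0.00142). Tpp1, a lysosomal tripeptidyl peptidase, was at 449 CPM in TpMo-derived and 554 CPM in Ly6Chi-derived macrophages (log2 fold change -0.30 ± 0.06 SE). Scarb2, the receptor that carries glucocerebrosidase to lysosomes, was at 103 CPM in TpMo-derived and 133 CPM in Ly6Chi-derived macrophages (log2 fold change -0.37 ± 0.09 SE). Psap, the precursor of the saposins and a substrate of cathepsin D, was at 11012 CPM in TpMo-derived and 11408 CPM in Ly6Chi-derived macrophages and was not called (edgeR adjusted p = 0.559).

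**Figure D5:**
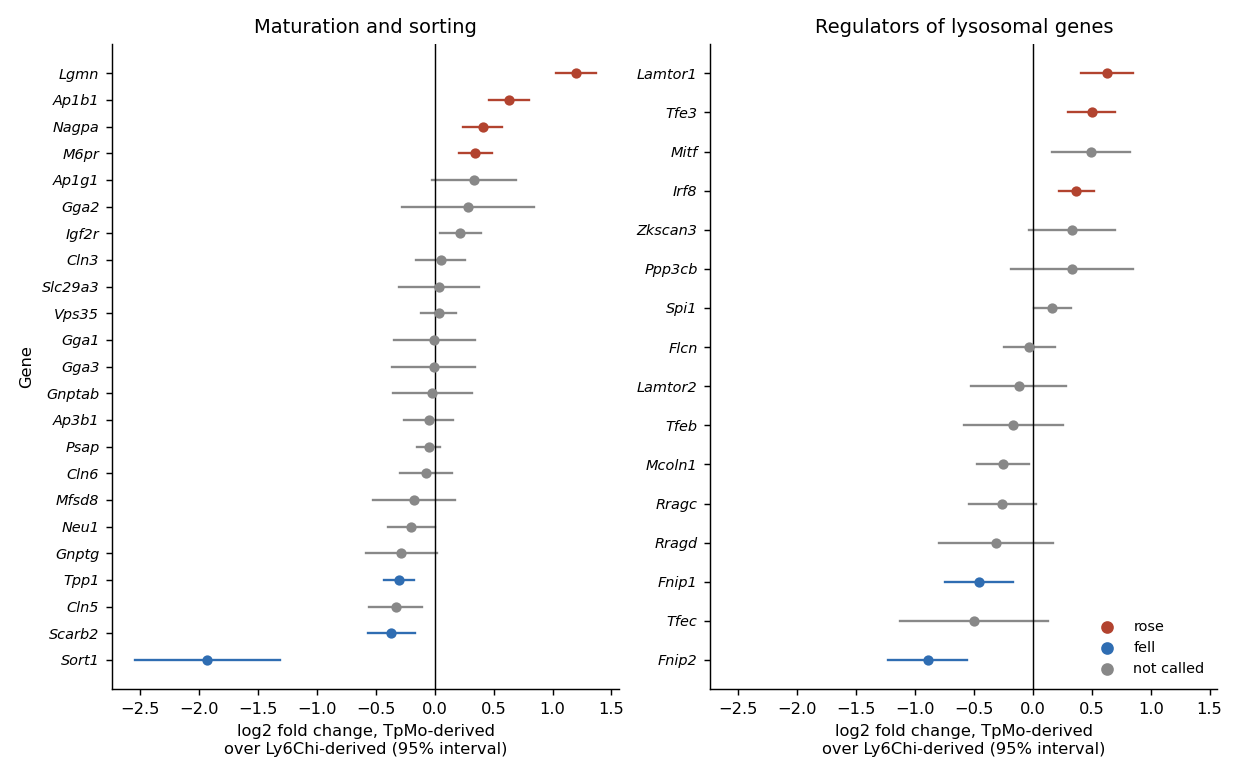
Log2 fold change, TpMo-derived over Ly6Chi-derived, with its 95% interval, for the 23 tested genes of enzyme maturation and sorting (left) and the 16 tested regulators of lysosomal genes (right). On the left Lgmn lies highest at 1.20 and Sort1 lowest at -1.93, and on the right Lamtor1 at 0.63 and Fnip2 at -0.89 mark the ends.

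Regulators of lysosomal genes also moved in both directions, with 3 of 16 higher, 2 lower and a median log2 fold change of -0.07. Over all genes tested, 6.54% were called as higher and 5.79% as lower. The test against a 1.5-fold change called 0 of these regulators. Tfe3, a relative of TFEB that binds the E-box above, was at 224 ± 7.82 CPM in TpMo-derived and 158 ± 16.3 CPM in Ly6Chi-derived macrophages (log2 fold change 0.50 ± 0.09 SE, edgeR adjusted p = 0.00506). Tfeb was at 18.5 CPM in TpMo-derived and 20.8 CPM in Ly6Chi-derived macrophages (edgeR adjusted p = 0.678), and Mitf at 55.2 CPM in TpMo-derived and 39.2 CPM in Ly6Chi-derived macrophages (edgeR adjusted p = 0.0594). Neither was called. Lamtor1, an anchor of mTORC1 signalling on lysosomes, and Irf8, a myeloid transcription factor, rose by 0.63 and 0.37 on the log2 scale. Fnip1 and Fnip2, partners of folliculin, fell by 0.46 and 0.89 on that scale.

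Partners of the cathepsins in antigen processing included genes with large fold changes. Of 13 listed, 12 were tested, 4 rose and 1 fell, with a median log2 fold change of 0.53. Cd74, the invariant chain that cathepsin S cleaves, was at 110.0 ± 48.5 CPM in TpMo-derived and 5.52 ± 3.21 CPM in Ly6Chi-derived macrophages (log2 fold change 4.31 ± 0.49 SE, edgeR adjusted p = 3.60e-04). The MHC class II chains H2-Aa and H2-Ab1 rose by 4.37 ± 0.85 and 3.61 ± 0.64 on the log2 scale (SE, edgeR adjusted p = 0.00799 and 0.00504). H2-Aa averaged 11.1 CPM in TpMo-derived and 0.532 CPM in Ly6Chi-derived macrophages. With 0, 30 and 16 counts in the Ly6Chi-derived libraries, H2-Aa passed the filter only through the TpMo-derived group. H2-Ab1 averaged 40.4 ± 25.9 CPM in TpMo-derived and 3.27 ± 2.19 CPM in Ly6Chi-derived macrophages. H2-Eb1, H2-DMb2, H2-DMa and H2-DMb1 were not called, with log2 fold changes of 2.75, 0.68, -0.49 and -0.21. Lgmn, named above, is also in this list. Ifi30, a thiol reductase that opens disulfide bonds of antigens, fell to 38.2 CPM in TpMo-derived macrophages, against 80.8 CPM in Ly6Chi-derived macrophages, a log2 fold change of -1.08 ± 0.12 (SE). No test of a list as a whole was made for any of these gene groups, and 12.3% of all genes tested were called.

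For each cathepsin that was called, the genes whose log2 CPM followed it most closely over the 6 libraries were found among 8028 tested genes of at least 10 CPM. The 6 libraries fall into 2 groups, so a high correlation describes the order and spacing of 6 values and carries no p. Tpm3 and Fbl were nearest to Ctsc, with Pearson's r of 0.999 and 0.997. Mmp12 and Sgms2 were nearest to Ctsd, at 0.999 each. Mmp12, the macrophage elastase, fell by 2.79 on the log2 scale, against 0.45 for Ctsd. Hmces and Pgm2l1 were nearest to Ctsh, Dpp9 and 5031439G07Rik to Ctsl, Dr1 and Psmd8 to Ctss, and Ch25h and Srpk2 to Ctsz, with r from 0.993 to 0.996.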

How the data were processed

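Per the file header, the authors counted reads of each library over exons of GENCODE M22 with featureCounts 1.6.3, with no option for read pairs, strand or multiple overlaps, and deposited raw counts per gene with exon lengths. STAR and GRCm38 come from the submitters' processing notes. Symbols came from GENCODE M21 (55394 identifiers matched, 93 did not).

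Genes passing filterByExpr (minimum count 10, minimum total 15) were scaled by TMM and tested with the robust quasi-likelihood test of edgeR 4.0.16 in R 4.3.3, without covariates, because the labels give no batch or pairing. CPM use TMM-scaled totals. TPM divide counts by exon length and are scaled to the same total without TMM. Replicates were numbered in accession order. Alternatives used limma 3.58.1 and DESeq2 1.42.0, other scalings and filters, and fits without each library. The script was tested on simulated counts with changes larger than those of the cathepsins that fell. That run does not bear on changes of their size.

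The members and lists were chosen with earlier results of these data known. Named were all cathepsins, the changed and some of the abundant members of each list, and genes fixed by name. Some of the tested neighbours within 50 kb and the 2 genes most alike each called cathepsin were also named. Promoters are from RefSeq, GRCm38.p6.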

Additional observations from a re-analysis of the deposited data

How the results depend on the processing

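The count of 6 changed cathepsins, 1 higher and 5 lower, was 6 with DESeq2 size factors, library sizes alone, totals and TMM without the cathepsins, no count filter, at least 5 CPM in 3 libraries, the DESeq2 Wald test and limma-voom. A test against a 1.5-fold change left 1 changed cathepsin and 317 changed genes. Leaving out single libraries gave 3 to 6 changed cathepsins, the lowest without Ly6Chi-derived replicate 2, and 976 to 1492 changed genes, against 1620 with all libraries. Without TpMo-derived replicate 3 there were 1074, and without Ly6Chi-derived replicates 1, 2 and 3 there were 1058, 976 and 1062. Ctse, which ran from -1.83 to 1.38 without single libraries, reversed to -0.68 with limma-voom and -1.83 without TpMo-derived replicate 1, and could not be tested at 5 CPM. Ctsf, which ran from -0.25 to 0.0246, reversed to 0.0246 without TpMo-derived replicate 1 and 0.0041 without Ly6Chi-derived replicate 3. The cause was not tested. With library sizes alone the median of all genes shifted by -0.05. The log2 ratio of the summed cathepsin level was -0.31, or -0.17 in CPM, -0.21 without Ctsd, -0.29 by principal transcript length and -0.32 by unshared exon length, and -0.32 to -0.30 without single libraries, where 2 against 3 libraries allow no exact p below 0.2. Calls among inhibitors numbered 2 without a count filter, 3 with DESeq2 and 0 with limma-voom, and among antigen processing partners 3 without a count filter. No paired analysis was possible because the labels give no replicate numbers, animals or batches.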
